A study of Homo sapiens with 4 samples.

Results

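In all, 10 genes of the intermediate filament family were followed in H1 cells, a long-established human embryonic stem cell line: VIM, NES, KRT8, KRT18, KRT7, KRT19, KRT10, LMNA, LMNB1 and LMNB2. They were named by symbol, as vimentin, nestin, keratins and lamins, and the choice was made with earlier results of these data known. All 10 symbols were among the 17472 genes of the deposited table, and every member had a value above 10 in each library, the minimum set for testing. Poly(A) RNA had been sequenced as paired-end reads from 2 libraries of H1 cells that carry MEK5DD and 2 libraries of unmodified H1 cells (WT), all grown in E8, a defined medium with FGF2 and TGFβ. MEK5DD is MAP2K5, the kinase directly above ERK5, with residues 311 and 315 each changed to Asp. It was brought in by lentivirus with puromycin selection, and a single MEK5DD line is described. No cells given virus and puromycin without MEK5DD are among the samples, so delivery, selection and the subline cannot be told apart from MEK5DD. The labels do not say whether the libraries of a group came from separate cultures, so the p-values reflect library-to-library spread, which may be technical.

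Intermediate filaments are rope-like polymers of coiled-coil proteins that carry mechanical load. Vimentin builds homopolymers in mesenchymal and many cultured cells, nestin needs a partner such as vimentin to enter a filament, and keratins assemble only as pairs of an acidic (type I) and a basic (type II) chain. Lamins form the meshwork under the inner nuclear membrane: B-type lamins are made in nearly all cells, and A-type lamins, encoded by LMNA, are scarce in pluripotent cells and accumulate as cells differentiate and stiffen. KRT8 with KRT18 is the first keratin pair made in the mammalian embryo and is present in pluripotent stem cells.

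Of the 10 genes, VIM, NES, KRT8, KRT18 and LMNA were higher in MEK5DD cells, KRT7 was lower, and KRT19, KRT10, LMNB1 and LMNB2 passed in neither direction. VIM had the largest change, 2.91-fold, LMNA the next largest rise at 1.62-fold, KRT8 and KRT18 were 1.53-fold and 1.54-fold higher, and NES was 1.27-fold higher. The test was limma on log2(normalised count + 1) across 15721 genes, with Benjamini-Hochberg adjusted p below 0.05 counted as a call. Over all genes tested, 7.69% were called higher and 6.47% lower, against 5 and 1 of the 10 members, a count given as a description since the choice of members was not blind to these data. The MEK5DD values lay wholly on one side of the WT values in 8 of 10 members, an arrangement that 56.2% of all tested genes also had. The median log2 fold change was 0.18 over the members and -0.00 over all genes tested.

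**Figure D1:**
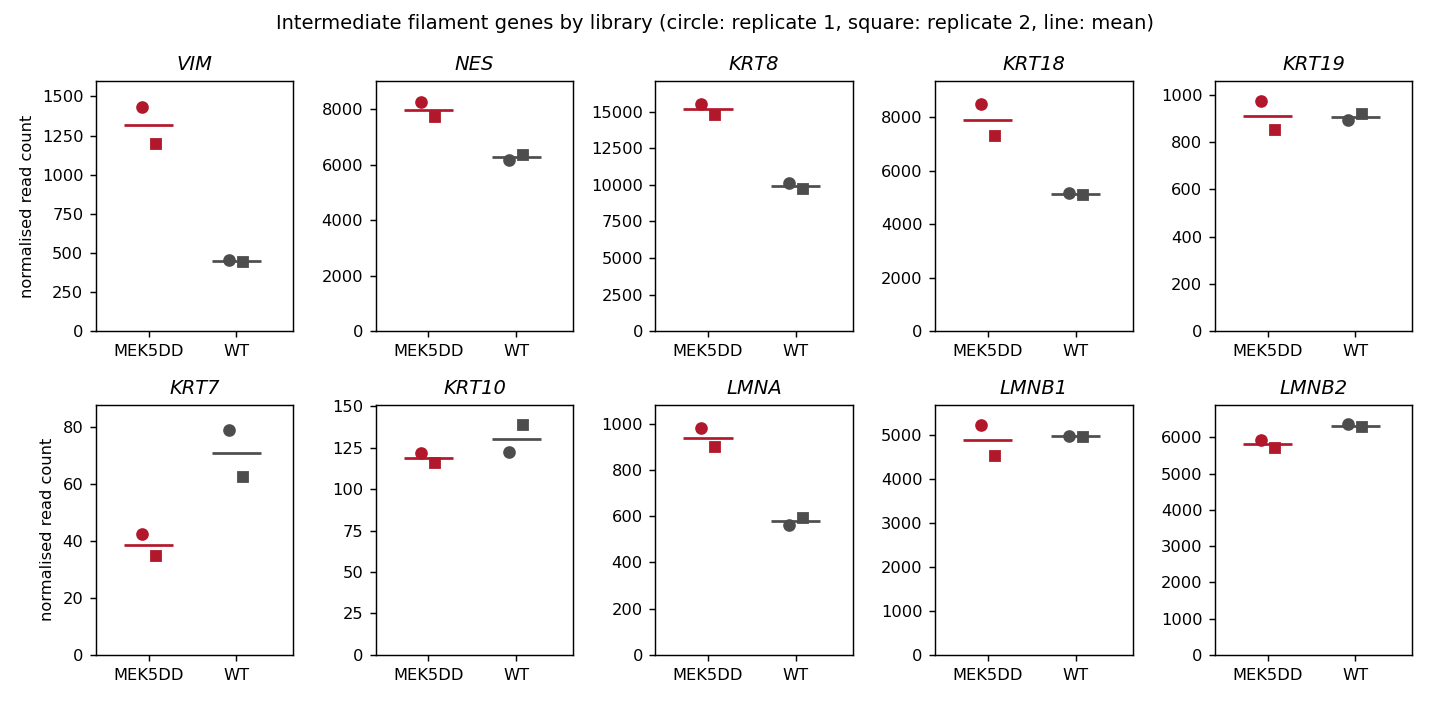
Normalised read count (vertical axis, from 0, one panel per gene) of each intermediate filament gene in the MEK5DD libraries (red) and the WT libraries (grey); circles are replicate 1, squares replicate 2 and lines group means. VIM, NES, KRT8, KRT18 and LMNA lie higher in both MEK5DD libraries, KRT7 lies lower in both, and KRT19 and LMNB1 overlap.

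The libraries held 17539654 and 15756339 recovered reads for MEK5DD and 17628945 and 14908486 for WT. MAP2K5, which checks the labels, had normalised counts of 3382 and 3558 in MEK5DD libraries and 344 and 315 in WT libraries. Pluripotency markers were present in all libraries: the 12 markers together summed to 170645 and 163141 in MEK5DD libraries and 170505 and 168491 in WT libraries, and POU5F1, the central pluripotency factor gene, had 42386 and 38116 in MEK5DD libraries against 39714 and 38568 in WT libraries. Of the 12, NANOG was called higher (log2 fold change 0.26, limma adjusted p = 0.0117), SOX2 lower (-0.20, adjusted p = 0.0437) and the other 10 in neither direction. The MEK5DD libraries were less alike than the WT libraries, with a chi-square per degree of freedom over genes of 6.09 for MEK5DD and 1.87 for WT, against 12.6 to 16.4 for pairs across the groups. All 10 members had the higher value in MEK5DD replicate 1, by a median ratio of 1.12, whereas 51.8% of all listed genes did, with a median ratio of 1.01. Between the WT libraries 6 of the 10 were higher in replicate 1. The difference between the MEK5DD libraries ran with the length of a gene's longest transcript. The median log2 ratio of MEK5DD replicate 1 to replicate 2 was 0.11 under 1500 bases and 0.08 at 1500 to 3000 bases. It was 0.00 at 3000 to 6000 bases, -0.11 at 6000 to 10000 bases and -0.19 at 10000 bases or more. Over the same bins the median log2 fold change of MEK5DD over WT also fell, at 0.04, 0.03, -0.01, -0.04 and -0.09. The members' longest transcripts span 1390 to 5558 bases. NES, LMNA, LMNB1 and LMNB2 fall at 3000 to 6000 bases, where the median log2 ratio of the MEK5DD libraries was 0.00. Their ratios of MEK5DD replicate 1 to replicate 2 were 1.07, 1.09, 1.15 and 1.04. The part of the length trend in the members' changes was not tested, and the plot of log2 fold changes shows each change with each library left out. In bulk RNA, more cells expressing a gene and more RNA of it per cell cannot be told apart.

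The start regions of 3 members are printed here because 2 of them, VIM and NES, rose in MEK5DD cells and LMNB1 passed in neither direction. Each window runs 5′ to 3′ on the gene's own strand from 250 bases before to 50 bases after a RefSeq start (GRCh38.p14): chr10:17227991-17228290 on the plus strand for VIM, chr1:156677358-156677657 on the minus strand for NES, and chr5:126776886-126777185 on the plus strand for the second of 2 LMNB1 starts. Capitals mark the GC box, GGGCGG on either strand, the letters that Sp and KLF family factors are known to bind.
VIM: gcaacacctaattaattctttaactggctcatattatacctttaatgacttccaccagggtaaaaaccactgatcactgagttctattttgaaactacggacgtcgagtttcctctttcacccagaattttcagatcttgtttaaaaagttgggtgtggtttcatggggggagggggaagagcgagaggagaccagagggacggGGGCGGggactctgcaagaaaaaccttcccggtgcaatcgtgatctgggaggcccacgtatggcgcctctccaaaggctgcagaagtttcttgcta
NES: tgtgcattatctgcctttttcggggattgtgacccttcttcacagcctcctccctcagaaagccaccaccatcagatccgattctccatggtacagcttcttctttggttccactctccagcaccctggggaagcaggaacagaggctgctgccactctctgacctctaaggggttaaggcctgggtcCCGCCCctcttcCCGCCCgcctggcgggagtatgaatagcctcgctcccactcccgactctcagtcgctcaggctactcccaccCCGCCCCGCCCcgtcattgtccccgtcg
LMNB1: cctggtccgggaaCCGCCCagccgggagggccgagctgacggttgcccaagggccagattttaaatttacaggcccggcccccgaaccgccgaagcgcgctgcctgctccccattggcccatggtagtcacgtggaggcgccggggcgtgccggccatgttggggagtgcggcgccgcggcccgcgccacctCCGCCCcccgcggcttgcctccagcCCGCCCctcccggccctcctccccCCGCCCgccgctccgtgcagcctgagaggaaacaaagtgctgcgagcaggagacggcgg

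The VIM window holds 1 GC box, and the NES window and the printed LMNB1 window hold 4 each, the last 2 in NES overlapping by a base. The window of the other LMNB1 start holds 0, as do those of KRT8, which rose, and KRT10, while the 3 LMNA windows hold 1, 1 and 2 and that of LMNB2 holds 1. The KRT8 window, chr12:52926420-52926719 on the minus strand, lies inside the annotated gene, whose outer start is at chr12:52949954. It thus covers 1 start of a gene with 17 annotated transcripts. A GC box stood in 45.0% of 35116 RefSeq start windows of the same length. The windows of VIM, NES and KRT8 each held 2 matches to CACCC (either strand, present in 59.9% of windows). That of KRT10, which passed in neither direction, also held 2. The 3 LMNA windows held 1, 1 and 4, and the LMNB1 and LMNB2 windows none. The AP-1 letters TGANTCA (either strand, 7.71% of windows), a CArG box (1.29%) and a MEF2 site (2.99%) were in none of the windows found for 7 members. The E-box CACCTG (either strand, 20.6%) was in the third LMNA window alone. A match is a run of letters and no match says only that these letters are not in that window. KRT7, KRT18 and KRT19 had no entry.

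Vimentin, the type III filament protein of mesenchymal and many cultured cells, changed most. VIM had normalised counts of 1430 and 1198 in MEK5DD libraries and 454 and 444 in WT libraries (mean 1314 ± 164 and 449 ± 7.63, SD, n = 2 each). Both MEK5DD values lay far above both WT values, and the MEK5DD libraries spread more widely than the WT ones. The log2 fold change was 1.54 (SE 0.09, 95% interval 1.34 to 1.75, limma adjusted p = 7.3e-07), and 84 of the tested genes rose more. It stayed between 1.41 and 1.67 with each library left out, and VIM was the only member still called without the mean-variance trend, where its adjusted p was 0.0296 and 2.79% of all genes were called. VIM lies at chr10:17228259-17237593 on the plus strand (GRCh38, GENCODE v29) and shares 12.4% of its exon bases with the antisense gene VIM-AS1. VIM-AS1 had 12.7 and 22.9 in MEK5DD libraries and 6.17 and 11.5 in WT libraries, so its counts were a small fraction of those of VIM.

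Fibroblast markers, which mark a cell type rich in vimentin, were mixed: of 12 markers 8 were listed, and 4 of these were called higher (COL1A1, COL1A2, COL6A3 and TAGLN) and the other 4 in neither direction. Of those 4, THY1 had a log2 fold change of 0.10, while COL5A1 (-0.29), PDGFRB (-0.39) and FBN1 (-0.25) had lower values in both MEK5DD libraries than in either WT library. The sum of the 8 was 9935 and 9661 in MEK5DD libraries and 8128 and 8087 in WT libraries. THY1 made up most of that sum, with 6214 and 6072 in MEK5DD libraries and 5775 and 5704 in WT libraries. COL3A1, LUM, DCN and POSTN, defining fibroblast genes, are not listed and were not analysed here. The part of other cells in the VIM result was not tested.

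Nestin, a large type VI protein known from neural progenitors and also made by pluripotent cells, rose less. NES had normalised counts of 8240 and 7717 in MEK5DD libraries and 6178 and 6346 in WT libraries (mean 7979 ± 369 and 6262 ± 119). The groups did not overlap, and the log2 fold change was 0.35 (SE 0.06, 95% interval 0.22 to 0.48, limma adjusted p = 0.00237). Leaving out WT replicate 1 ended the call (log2 fold change 0.33, adjusted p = 0.0738), as did dropping the mean-variance trend (adjusted p = 0.120). Most neural progenitor markers moved the other way: 7 of 9 tested were lower. FABP7 (log2 fold change 0.78) and DCX (0.19) passed in neither direction. PAX6, below the filter, had 6.36 and 5.98 in MEK5DD libraries and 1.76 and 3.12 in WT libraries. The 10 listed of 12 summed to 1911 and 1873 in MEK5DD libraries against 4444 and 4461 in WT libraries. ZIC1 and SIX6, both called lower, made up most of that sum. The part of such cells in the NES result was not tested. NES is a single-transcript gene at chr1:156668763-156677397 on the minus strand, and it shares no exon with a neighbour.

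KRT8 and KRT18 encode the type II and type I partners of the simple-epithelial keratin filament, and they rose by nearly the same factor. KRT8 had normalised counts of 15526 and 14762 in MEK5DD libraries and 10091 and 9685 in WT libraries (mean 15144 ± 541 and 9888 ± 287), a log2 fold change of 0.61 (SE 0.06, 95% interval 0.49 to 0.74, limma adjusted p = 2.92e-05). KRT18 had 8493 and 7286 in MEK5DD libraries and 5157 and 5086 in WT libraries (mean 7889 ± 854 and 5121 ± 50.3), a log2 fold change of 0.62 (SE 0.07, 95% interval 0.46 to 0.78, limma adjusted p = 0.000161). In both genes each MEK5DD library stood above each WT library.

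Leaving out each library in turn kept both calls, with log2 fold changes of 0.58 to 0.65 for KRT8 and 0.51 to 0.73 for KRT18. Without the mean-variance trend both were lost (adjusted p = 0.0530 for KRT8 and 0.0774 for KRT18). The genes lie head to head on chromosome 12, KRT8 at chr12:52897187-52949954 on the minus strand and KRT18 at chr12:52948871-52952901 on the plus strand. Their annotated exons share 525 bases, which is 7.63% of KRT8 and 16.3% of KRT18. The strand setting of the counting was not stated in the sources used here, so reads in that stretch cannot be assigned to either.

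Both keratins have many processed pseudogenes, and of the 50-base stretches of their transcripts 10.2% in KRT8 and 14.3% in KRT18 recur in another gene. At 100 bases these shares were 1.60% and 0.00%. The 5 listed KRT8 pseudogenes together amounted to 1.78% and 1.67% of the KRT8 count in MEK5DD libraries and 2.02% and 1.89% in WT libraries. KRT8P3, the most abundant of them, had 162 and 150 in MEK5DD libraries and 107 and 102 in WT libraries, a log2 fold change of 0.58 (SE 0.14, limma adjusted p = 0.0187), close in size to that of KRT8 itself, with which it shares sequence.

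KRT7, a type II keratin of ductal, amniotic and trophoblast epithelium, was the member that fell. It had normalised counts of 42.7 and 34.9 in MEK5DD libraries and 79.3 and 62.5 in WT libraries (mean 38.8 ± 5.53 and 70.9 ± 11.9). These rest on 47 and 35 recovered reads in MEK5DD libraries and 90 and 60 in WT libraries. The groups did not overlap, and the log2 fold change was -0.85 (SE 0.23, 95% interval -1.34 to -0.36, limma adjusted p = 0.0257). Leaving out WT replicate 1, the higher WT library, ended the call (-0.68, adjusted p = 0.225). So did DESeq2 (adjusted p = 0.119) and dropping the mean-variance trend (adjusted p = 0.0963). DESeq2 called 9.57% of genes in either direction and edgeR, which kept the KRT7 call (adjusted p = 0.0237), called 14.7%. KRT7 spans chr12:52232520-52252186 on the plus strand, and its exons overlap the antisense gene KRT7-AS, which is not listed.

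Amnion and trophoblast markers moved in both directions beside KRT7: of 12 markers 5 were listed and 4 tested, with 1 higher and 2 lower. Their sum was 292 and 305 in MEK5DD libraries and 442 and 484 in WT libraries. GABRP made up most of that sum, with 154 and 174 in MEK5DD libraries and 295 and 337 in WT libraries. GABRP and IGFBP3 were the 2 lower. GATA3 was the 1 higher, with 39.1 and 35.9 in MEK5DD libraries and 7.05 and 15.6 in WT libraries. GATA2 passed in neither direction, and TFAP2A was below the filter. Among those not listed, and not analysed here, were CGA, CGB5, TP63 and ELF5. The part of such cells in the KRT7 result was not tested.

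KRT19, a type I keratin that can pair with KRT8 in place of KRT18, passed in neither direction. It had normalised counts of 974 and 851 in MEK5DD libraries and 896 and 919 in WT libraries (mean 913 ± 86.9 and 907 ± 16.2). The WT values fell between the MEK5DD values, and the log2 fold change was 0.01 (SE 0.09, 95% interval -0.18 to 0.19, limma adjusted p = 0.977). The upper bound of that interval lies below the lower bounds for KRT8 and KRT18. KRT19 lies at chr17:41523617-41528308 on the minus strand.

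KRT10, a type I keratin of the differentiating epidermis, rested on 116 to 139 recovered reads per library. It had normalised counts of 122 and 116 in MEK5DD libraries and 122 and 139 in WT libraries (mean 119 ± 4.35 and 130 ± 11.4). The groups were separated by less than 1 normalised count, and the log2 fold change was -0.13 (SE 0.15, 95% interval -0.46 to 0.19, limma adjusted p = 0.611). That interval leaves no room for a rise of the size seen for NES (0.35), but a fall of that size lies within it. KRT10 lies at chr17:40818117-40822595 on the minus strand and shares 2.61% of its exon bases with TMEM99, which had 21.8 and 20.9 in MEK5DD libraries and 22.0 and 16.7 in WT libraries.

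**Figure D2:**
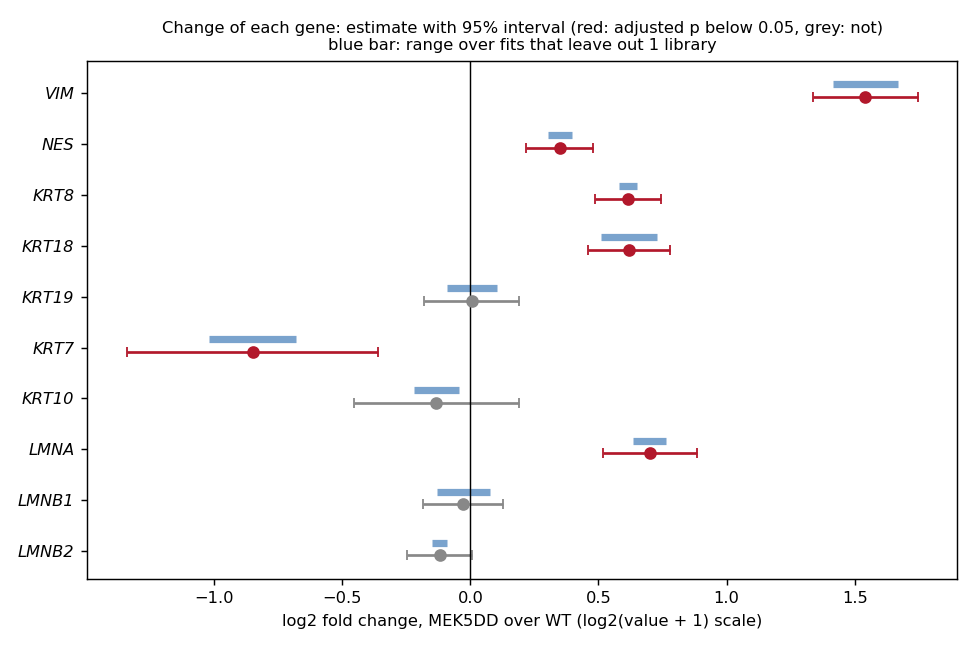
Log2 fold change of MEK5DD over WT for each gene, with its 95% interval (points and whiskers, red where the adjusted p was below 0.05 and grey where not), and the range over the fits that leave out 1 library (blue bars). VIM at 1.54 stands clear of the others, KRT7 at -0.85 has the widest interval, and the intervals of KRT19, KRT10, LMNB1 and LMNB2 span 0.

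LMNA, which encodes lamins A and C, was the lamin gene that rose. It had normalised counts of 981 and 898 in MEK5DD libraries and 563 and 593 in WT libraries (mean 940 ± 58.9 and 578 ± 21.1). The groups stood well apart, with a log2 fold change of 0.70 (SE 0.08, 95% interval 0.52 to 0.88, limma adjusted p = 0.000195). It was 0.64 to 0.76 with each library left out, and passed each time. Without the mean-variance trend its adjusted p was 0.0512. Gene counts cannot separate lamin A from lamin C. LMNA lies at chr1:156082573-156140089 on the plus strand, and none of its 50-base stretches recurs in another annotated gene.

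The B-type lamin genes did not pass. LMNB1 had normalised counts of 5228 and 4528 in MEK5DD libraries and 4967 and 4958 in WT libraries (mean 4878 ± 495 and 4962 ± 6.35), with the WT values between the MEK5DD values and a log2 fold change of -0.03 (SE 0.07, 95% interval -0.19 to 0.13, limma adjusted p = 0.841). LMNB2 had 5933 and 5698 in MEK5DD libraries and 6358 and 6282 in WT libraries (mean 5815 ± 166 and 6320 ± 54.3). Its groups did not overlap, yet the log2 fold change of -0.12 (SE 0.06, 95% interval -0.25 to 0.01) had a limma adjusted p of 0.206.

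Both B-type genes depended on the MEK5DD library used. Without MEK5DD replicate 1, when 23.8% of all genes were called in either direction, LMNB1 was lower (-0.13, adjusted p = 0.0235) and so was LMNB2 (-0.15, adjusted p = 0.00545). Without MEK5DD replicate 2, when 29.4% of genes were called, LMNB1 was at 0.08 and LMNB2 at -0.09, and neither passed. Without WT replicate 1 and without WT replicate 2 the shares called were 7.61% and 7.38%, again with neither B-type gene among them. LMNB1 lies at chr5:126776623-126837020 on the plus strand and LMNB2 at chr19:2427638-2456996 on the minus strand, where it shares 4.73% of its exon bases with TIMM13.

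Ratios of 2 members within a library remove the scaling between libraries. The log2 ratio of VIM to NES was -2.53 and -2.69 in MEK5DD libraries and -3.76 and -3.84 in WT libraries, a difference of 1.19, so VIM gained 2.29-fold on NES. The log2 ratio of LMNA to LMNB1 was -2.41 and -2.33 in MEK5DD libraries and -3.14 and -3.06 in WT libraries, a difference of 0.73 or 1.66-fold. In both ratios the groups lay apart by far more than the libraries of a group did.

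The log2 ratio of KRT8 to KRT18 was 0.87 and 1.02 in MEK5DD libraries and 0.97 and 0.93 in WT libraries, and the groups overlapped, with a difference of -0.00. LMNB1 to LMNB2 gave -0.18 and -0.33 in MEK5DD libraries and -0.36 and -0.34 in WT libraries, a difference of 0.09 that was smaller than the gap between the MEK5DD libraries. A two-sided exact permutation test with 2 libraries against 2 cannot go below p = 0.333. That exact test gave p = 0.333 for the ratios other than KRT8 to KRT18, where p = 1, and 0.444 after adjustment over the 4 ratios for those at 0.333.

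**Figure D3:**
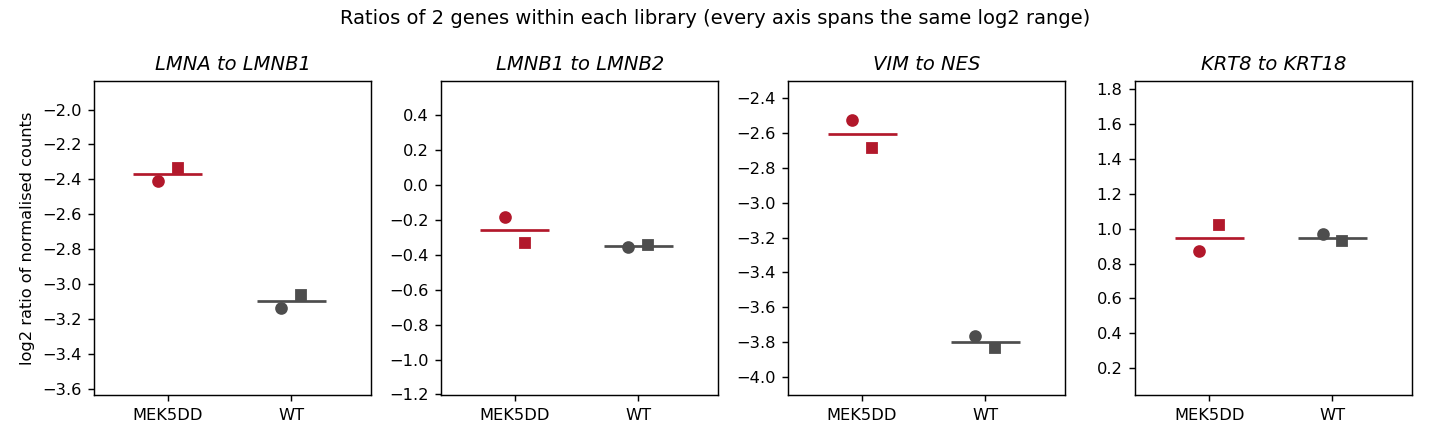
Log2 ratio of the normalised counts of 2 genes within each library (vertical axis, each panel spanning the same log2 range), MEK5DD left in red and WT right in grey, with lines at group means. The ratios of LMNA to LMNB1 and VIM to NES are higher in both MEK5DD libraries, by 0.73 and 1.19, while those of KRT8 to KRT18 overlap.

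To compare levels between genes, normalised counts were divided by merged exon length in kilobases. KRT18 and KRT8 were highest, with mean levels per kilobase of 2452 and 2201 in MEK5DD libraries against 1591 and 1437 in WT libraries. NES followed in MEK5DD libraries at 1436 per kilobase, against 1127 in WT libraries, where it came after both B-type lamin genes. LMNB1 had 1343 per kilobase in MEK5DD and 1366 in WT libraries, and LMNB2 had 1071 and 1163. In MEK5DD libraries NES and LMNB1 overlapped, and no other neighbours in either order did.

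The rest were much lower per kilobase. KRT19 had 391 in MEK5DD and 388 in WT libraries, VIM 255 and 87.1, LMNA 135 and 82.7, KRT10 55.4 and 60.9, and KRT7 9.48 and 17.3. VIM thus remained, per kilobase, well below the keratin pair and nestin in MEK5DD cells despite having the largest fold change. Lengths set part of this order: with the longest annotated transcript as the length KRT8 came above KRT18 (5291 and 3778 per kilobase in MEK5DD libraries), and in WT libraries LMNA came above VIM.

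As shares of the summed level per kilobase of the 10 genes, keratins took 54.8% and 54.5% in MEK5DD libraries and 48.0% and 47.4% in WT libraries. Lamins took 27.2% and 27.3% in MEK5DD libraries and 35.6% and 35.7% in WT libraries. Vimentin took 2.83% and 2.62% in MEK5DD libraries and 1.20% and 1.18% in WT libraries, and nestin 15.1% and 15.6% against 15.1% and 15.7%. Keratins and vimentin thus took a larger share in both MEK5DD libraries, lamins a smaller share, and nestin the same range. A share also moves with the other classes: the lamin sums per kilobase overlapped between the groups, at 2672 and 2424 in MEK5DD libraries and 2618 and 2606 in WT libraries. The nestin level was higher, at 1482 and 1389 per kilobase in MEK5DD libraries and 1112 and 1142 in WT libraries, and the keratin sum was 5380 and 4836 in MEK5DD libraries and 3529 and 3461 in WT libraries. With the longest transcript as the length these directions were kept for keratins, lamins and vimentin, and nestin took 9.64% and 9.93% in MEK5DD libraries against 10.1% and 10.5% in WT libraries.

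**Figure D4:**
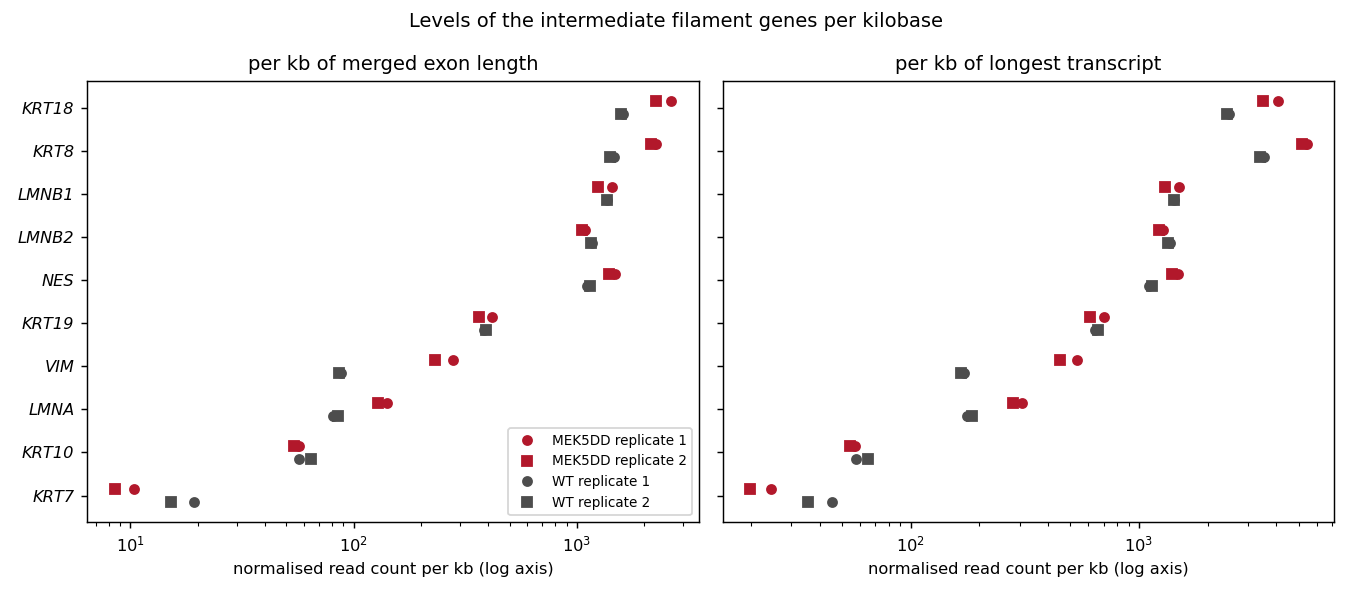
Level of each gene in normalised read counts per kilobase (log axis), by merged exon length on the left and longest transcript on the right, with MEK5DD in red above WT in grey for each gene. KRT18 and KRT8 are highest and KRT7 lowest under both lengths, and VIM is at 255 in MEK5DD and 87.1 in WT by merged exon length.

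Genes that build, anchor or process filaments were taken from 5 lists of 126 genes, of which 66 were listed and 63 tested. Of these 10 were called higher and 2 lower, against 7.69% and 6.47% of all genes tested. By list, 2 of 21 and 1 of 12 were called higher, near that background, and 0 of 5. The other lists had 3 of 9 and 4 of 16 higher, above that share. These counts are a description, since the lists were chosen with earlier results known. Medians of the lists lay between -0.06 and 0.19 (log2), against -0.00 over all genes tested.

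Other intermediate filament genes had 9 of 62 tested, with 3 higher and the other 6 in neither direction. INA, the neuronal type IV protein internexin, had 1824 and 1946 in MEK5DD libraries and 1171 and 1197 in WT libraries (log2 fold change 0.67, SE 0.07, limma adjusted p = 6.63e-05). NEFL, the neurofilament light chain, had 2096 and 2016 in MEK5DD libraries and 1537 and 1481 in WT libraries (0.45, SE 0.07, adjusted p = 0.00102). DES, the muscle type III protein desmin, had 55.4 and 49.8 in MEK5DD libraries and 19.4 and 19.8 in WT libraries (1.38, SE 0.26, adjusted p = 0.00392). NEFM, the medium chain that assembles with NEFL, had 1345 and 1197 in MEK5DD libraries and 1436 and 1359 in WT libraries and did not pass (adjusted p = 0.283); it was chosen after its values were seen. The 51 members of that list that were not listed, most of them epidermal and hair keratins, were not analysed here.

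Cytolinker and desmosome genes, which tie filaments to junctions and to other cytoskeletal systems, had 4 of 16 tested members higher and 1 lower. PLEC, the large linker plectin, had 3119 and 3206 in MEK5DD libraries and 2231 and 2434 in WT libraries (0.44, SE 0.07, limma adjusted p = 0.00107). PPL, the desmosome and keratin linker periplakin, had 1105 and 1145 in MEK5DD libraries and 725 and 739 in WT libraries (0.62, SE 0.08, adjusted p = 0.000219). The plakophilin gene PKP3, a desmosomal plaque gene, had 92.7 and 76.7 in MEK5DD libraries and 37.0 and 29.2 in WT libraries (1.33, SE 0.22, adjusted p = 0.00194). JUP, the plaque protein plakoglobin, was the other gene higher (0.42, SE 0.07, adjusted p = 0.00220; chosen after its values were seen). FAM83H, whose protein recruits casein kinase to keratin filaments, fell, with 593 and 591 in MEK5DD libraries and 847 and 1027 in WT libraries (-0.65, SE 0.10, adjusted p = 0.000849). DSP, the desmoplakin gene that anchors keratins at desmosomes, had 7701 and 8857 in MEK5DD libraries and 7684 and 7678 in WT libraries and did not pass (adjusted p = 0.367; chosen after its values were seen).

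Of 21 nuclear lamina partner genes 2 were higher and the other 19 passed in neither direction. TMEM43, an inner nuclear membrane protein gene, had 860 and 829 in MEK5DD libraries and 675 and 631 in WT libraries (0.37, SE 0.08, limma adjusted p = 0.0102), and its call was lost without WT replicate 2 (adjusted p = 0.176). TOR1AIP2, a torsin cofactor gene, had 779 and 756 in MEK5DD libraries and 654 and 617 in WT libraries (0.27, SE 0.08, adjusted p = 0.0446), lost when either WT library was dropped (adjusted p = 0.199 and 0.427) and in DESeq2 (adjusted p = 0.155). Among the 5 genes that farnesylate and trim lamin tails, limma, edgeR and DESeq2 each called 0, and limma called 1 when MEK5DD replicate 1 was left out. A single gene, FNTA, the shared farnesyltransferase subunit gene, had an unadjusted p below 0.05 in limma (0.0219; adjusted p = 0.105; chosen after its values were seen). The rise of LMNA was thus not accompanied by a called change in these 5 genes.

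Filament kinase, cleavage and chaperone genes had 1 of 12 tested members higher and 1 lower. HSPB1, a small heat shock protein that binds filaments, had 1574 and 1474 in MEK5DD libraries and 1298 and 1275 in WT libraries (0.24, SE 0.07, limma adjusted p = 0.0406). PLK1, a mitotic kinase that phosphorylates vimentin, was lower, with 2135 and 1908 in MEK5DD libraries and 2367 and 2389 in WT libraries (-0.24, SE 0.07, limma adjusted p = 0.0471). Neither HSPB1 nor PLK1 passed when WT replicate 1 was dropped (adjusted p = 0.288 and 0.300), when WT replicate 2 was dropped (adjusted p = 0.369 and 0.348) or in DESeq2 (adjusted p = 0.111 and 0.103). The call of HSPB1 was also lost with library totals (adjusted p = 0.0584) and upper-quartile factors (adjusted p = 0.0520), as was that of TOR1AIP2 (adjusted p = 0.0650 and 0.0542).

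With no mean-variance trend, DES and INA were the partner genes still called, and the adjusted p of the other named calls was between 0.0503 (PPL) and 0.250 (PLK1).

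**Figure D5:**
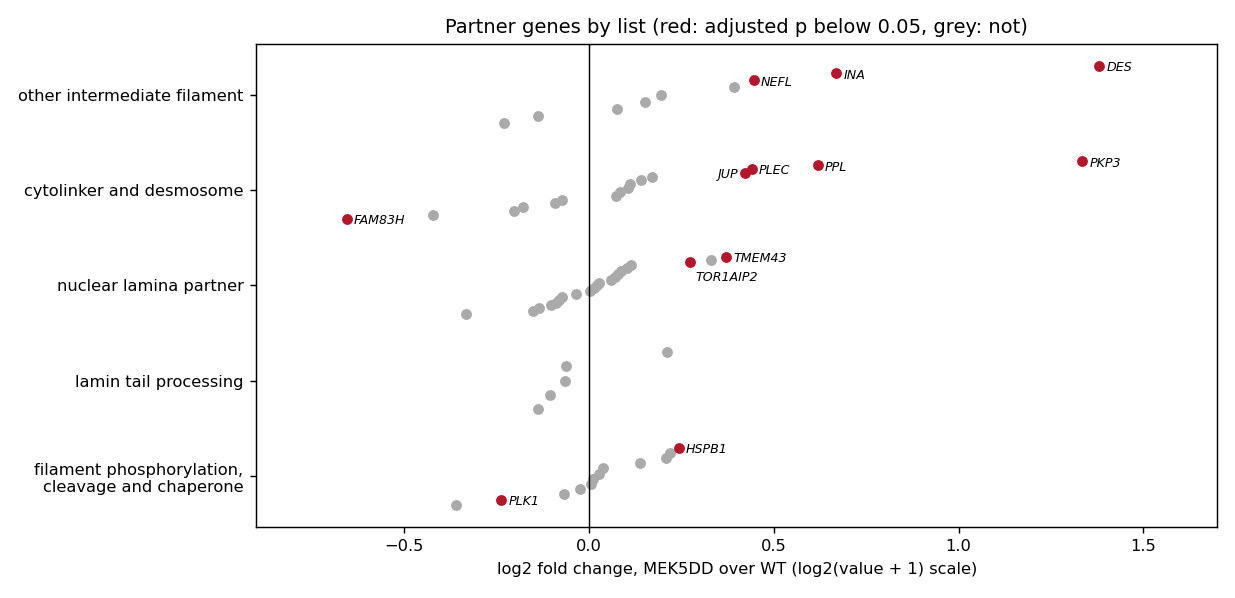
Log2 fold change of MEK5DD over WT (horizontal axis) for each tested gene of the 5 partner lists (rows), red where the adjusted p was below 0.05 and grey where not. The 10 genes called higher are spread over 4 of the lists, FAM83H and PLK1 are the 2 called lower, and none of the 5 lamin tail processing genes is red.

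The genes whose pattern over the 4 libraries was most like that of VIM were sought among 3475 genes with a mean count of at least 1000, by the root mean square difference of their log2 deviations from the mean. The annexin gene ANXA2 was nearest (0.0649), with 6706 and 6078 in MEK5DD libraries and 2420 and 2243 in WT libraries. S100A10 (0.137) had 3355 and 2877 in MEK5DD libraries and 1233 and 1319 in WT libraries. AHNAK (0.154), a giant scaffold protein gene, had 3626 and 4087 in MEK5DD libraries and 1316 and 1354 in WT libraries. Likeness over 4 libraries rests mainly on the difference between the groups.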

How the data were processed

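Per the labels, poly(A) RNA of H1 cells was sequenced on an Illumina NextSeq 500. The deposited table holds signal values, here gene counts normalised by the authors. The build hg38 and the tools STAR, featureCounts 1.5.3, Trimmomatic 0.36 and DESeq2 1.26.0 appear, without their roles, in the submitters' processing notes. Annotation and strand setting were not stated in the sources used here. In every library 100% of values were whole multiples (within 0.001) of the smallest value, which gave recovered reads; in MEK5DD replicate 2 that value, 0.997, is close to 1, so recovery there rests on this match alone.

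The main test was limma 3.58.1 (R 4.3.3) with a mean-variance trend on log2(value + 1), for 15721 genes at 10 or more in at least 2 libraries, with two-sided p adjusted by Benjamini and Hochberg's method and called below 0.05. The log2(value + 1) scale understates changes of low genes. The alternatives changed the pseudocount, filter, scaling or variance model, added a replicate block, left out each library, or used edgeR 4.0.16 and DESeq2 1.42.0 on recovered reads. A group left with 1 library is assumed to vary like the other. Exon lengths and overlaps came from GENCODE v29, which held 97.8% of the symbols, and start windows from RefSeq.

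The members and lists were chosen with earlier results of these data known. Named partners were up to 4 called genes per list with the largest change, and the others are marked. One gene of the lists is not reported here. The procedure was tested on simulated data in which both groups had the same spread and fewer genes changed than were called here. That test therefore does not cover the unequal spread of the groups.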

Additional observations from a re-analysis of the deposited data

How the results depend on the processing

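Counts of calls moved most with the variance model and the library left out. Without the mean-variance trend 439 genes were called in place of 2226, with 1 member higher and 0 lower, and 2 partner genes higher and 0 lower. DESeq2 called 1358 genes, with 0 members and 1 partner gene lower. With each library left out, 1160 to 4629 genes were called, with 4 to 5 members higher and 0 to 3 lower, and 7 to 19 partner genes higher and 1 to 8 lower. Deviations of same-numbered libraries were hardly related (r = 0.0469 over 15721 genes). That value cannot settle whether libraries of the same number were made together, which the labels do not say. With the replicate block 3349 genes were called, with 5 members higher and 1 lower as before, and 4 partner genes lower. KRT19 changed sign, to -0.0215 with library totals, -0.00971 with upper-quartile factors and from -0.0918 to 0.103 with a library left out, as did LMNB1 (-0.132 to 0.0751) and the difference in the log2 ratio of KRT8 to KRT18 (-0.0785 to 0.0699). Other pseudocounts, filters and scalings, robust variances and edgeR kept every member's side of the threshold. The causes were not tested. KRT7, at 35 to 90 reads, is the member that depth limits most.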

Other observations

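Markers of 3 other cell types that carry vimentin or simple-epithelial keratins were also measured. Of 8 mesoderm markers 6 were listed and 5 tested, and 2 were called higher, with a sum of 5638 and 5904 in MEK5DD libraries and 2951 and 2849 in WT libraries. KDR, a VEGF receptor gene, made up most of that sum, with 5366 and 5608 in MEK5DD libraries and 2757 and 2669 in WT libraries. Of 8 endoderm markers 4 were listed and tested, with 1 higher and 2 lower and a sum of 126 and 115 in MEK5DD libraries and 202 and 215 in WT libraries. Of 5 endothelial markers 3 were listed, 1 of them called higher, and PECAM1 and CDH5 are not listed and were not analysed here. The part of such cells in the changes of VIM, KRT8 and KRT18 was not tested. VIM-AS1, an antisense neighbour of VIM, had a log2 fold change of 0.94 (SE 0.47, limma adjusted p = 0.217).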
